A study of Rattus norvegicus with 16 samples.

Results

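The 9 genes described here mostly encode enzymes that reduce or otherwise clear quinones, aldehydes, alkenals and epoxides. Some instead keep thiols of the thioredoxin and peroxiredoxin system reduced, and Pir encodes pirin, a nuclear iron protein. In full the genes are Nqo1, Akr1b8, Akr7a3, Cbr1, Ptgr1, Pir, Srxn1, Txnrd1 and Ephx1. They were taken by name from a list of genes known as NRF2 targets, with earlier results of these data known. Their probes were found by matching the transcript accession of each array probe to a gene symbol. They make up 9 of the 15284 genes with a named probe. The 9 genes had 17 probes, all well above background on all 16 arrays, and all 9 genes entered the test over 11849 genes.

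The arrays measured total RNA of the renal outer medulla of male Crl:CD Sprague-Dawley rats that were 5 weeks old when dosing began. The treated rats received 2-amino-4-nitrophenol (ANP), a nitroaromatic amine used in hair dyes, at 750 mg/kg/day in corn oil by gavage for 1, 7, 14 or 28 days, and the vehicle controls (VC) received corn oil for the same times. At days 1 and 7 each group was 1 array of RNA pooled from 3 animals, which allows no test; at days 14 and 28 each group was 3 arrays of 1 animal each. The outer medulla holds the straight (S3) part of the proximal tubule, the thick ascending limb and collecting ducts, and all 14 S3 markers and all 14 thick ascending limb markers measured were well above background on at least 1 array of every group. Fewer cells of a type and less RNA per cell cannot be told apart in such tissue.

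Values below are array signals divided by the array's own 75th percentile, so they have no unit and can be set side by side between arrays for 1 gene but not between genes. A fold change is ANP over VC from a linear model over the 12 arrays of days 14 and 28, with its 95% interval. A gene is said to have risen or fallen where the p-value of that model (limma, adjusted by the Benjamini-Hochberg method over all 11849 genes) was under 0.05. Between 64.75% and 69.6% of probes were well above background per array, and the correlation across genes between replicate arrays ran from 0.987 to 0.993. With 3 animals a group, precision is limited by their number. The 4 groups of days 14 and 28 lay unevenly on 3 slides. At day 28 the ANP arrays lay on a slide of their own, so slide and treatment cannot be told apart there, and at day 14 a comparison within 1 slide sets ANP replicate 1 against the 3 VC arrays. Replicate numbers are used here only to name the animals.

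The transcription factor NRF2 is held at a low level by KEAP1, which presents it for degradation, and it accumulates when electrophiles or oxidants modify KEAP1. It then binds, as a dimer with a small MAF protein, to antioxidant response elements beside genes of detoxification and redox balance. NQO1 reduces quinones to hydroquinones without releasing the semiquinone, aldo-keto reductases turn aldehydes and ketones into alcohols, and the thioredoxin system passes electrons from NADPH to oxidised proteins.

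The core of that element was searched in the stretch from 250 bases before to 50 bases after the annotated gene starts (RefSeq, GRCr8), which was at hand for 8 of the 9 genes with 10 starts. Ptgr1 was not among them. The motif TGACNNNGC, read on either strand, was present for 3 of the 8 genes, against 13.1% of the 27457 rat genes with promoters of the same length in the table. Its stricter form TGACTCAGC, which lies within the wider motif, was present for 2 of them, Pir and Ephx1, against 0.484% of genes. A form with G at the fourth letter, TGAGNNNGC, was added after these sequences had been seen; it was present for 2 genes, Srxn1 and Akr1b8, and for 18.4% of genes. A match is a description of letters, not a measured binding site. The 4 promoters below are shown because Pir, Ephx1 and Txnrd1 hold the searched motif and Srxn1 holds the most matches of the added form; capitals mark each match as it reads on the gene's strand, 5′ to 3′, so GCTGAGTCA is TGACTCAGC on the other strand.
Pir, chrX:33851000-33851299, minus strand: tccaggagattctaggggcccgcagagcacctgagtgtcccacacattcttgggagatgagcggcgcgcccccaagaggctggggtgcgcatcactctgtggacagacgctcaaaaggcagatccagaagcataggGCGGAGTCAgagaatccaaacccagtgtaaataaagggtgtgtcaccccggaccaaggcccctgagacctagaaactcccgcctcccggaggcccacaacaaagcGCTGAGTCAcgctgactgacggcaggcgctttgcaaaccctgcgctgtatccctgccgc
Ephx1, the second start, chr13:95263068-95263367, minus strand: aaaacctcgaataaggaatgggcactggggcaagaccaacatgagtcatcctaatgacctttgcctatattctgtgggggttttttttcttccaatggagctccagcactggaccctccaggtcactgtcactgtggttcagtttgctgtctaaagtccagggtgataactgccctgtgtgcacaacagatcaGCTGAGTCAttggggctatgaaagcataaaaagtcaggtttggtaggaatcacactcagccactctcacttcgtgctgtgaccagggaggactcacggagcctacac
Srxn1, chr3:161064562-161064861, plus strand: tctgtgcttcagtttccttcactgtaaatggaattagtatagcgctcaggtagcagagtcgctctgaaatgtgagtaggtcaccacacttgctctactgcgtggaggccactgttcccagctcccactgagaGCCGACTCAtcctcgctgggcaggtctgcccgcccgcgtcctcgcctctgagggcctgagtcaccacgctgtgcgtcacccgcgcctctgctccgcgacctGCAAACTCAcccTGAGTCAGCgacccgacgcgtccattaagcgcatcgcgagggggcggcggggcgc
Txnrd1, the second start, chr7:22755855-22756154, minus strand: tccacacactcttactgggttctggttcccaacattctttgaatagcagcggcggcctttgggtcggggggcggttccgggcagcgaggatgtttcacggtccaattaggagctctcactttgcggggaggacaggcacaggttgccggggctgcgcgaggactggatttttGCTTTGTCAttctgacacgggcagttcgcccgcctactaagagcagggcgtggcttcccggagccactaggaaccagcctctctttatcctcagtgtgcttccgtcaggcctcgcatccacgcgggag
In Pir the matches began 114 and 9 bases before the start, and in Ephx1 57 bases before it. Srxn1 held 3 matches of the added form, at 118, 17 and 5 bases before the start, the last of them as TGAGTCAGC, and Akr1b8 held 1, at 70 bases before it. The Txnrd1 match began 78 bases before the start. No match lay in the windows of Nqo1, Akr7a3 and Cbr1.

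Most of the 9 genes were higher in the ANP kidneys at every time measured. As they were chosen with earlier results of these data known, their shares beside all genes are a description and no test. In the day 1 pools 8 of 9 were at least 2-fold higher in ANP, beside 4.83% of 12413 genes, none was at least 2-fold lower, beside 4.95%, and in the day 7 pools 7 of 9 were higher, beside 2.12% of 12122 genes, and none lower, beside 2.53%. At day 14 Ptgr1, Pir and Akr7a3 rose, 3 of 9 against 0.363% of all genes, and at day 28 Nqo1, Akr1b8, Akr7a3, Ptgr1, Pir and Srxn1 rose, 6 of 9 against 4.49%. None of the 9 fell at either day, where 0.118% and 2.69% of all genes fell. Over both days 7 rose, Ephx1 being the addition, against 6.14% of all genes, and none fell, against 4.08%. The median log2 difference of the 9 genes was 2.92, 1.94, 1.18 and 1.84 at days 1, 7, 14 and 28, beside -0.04, 0.04, 0.01 and 0.02 for all genes.

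**Figure D1:**
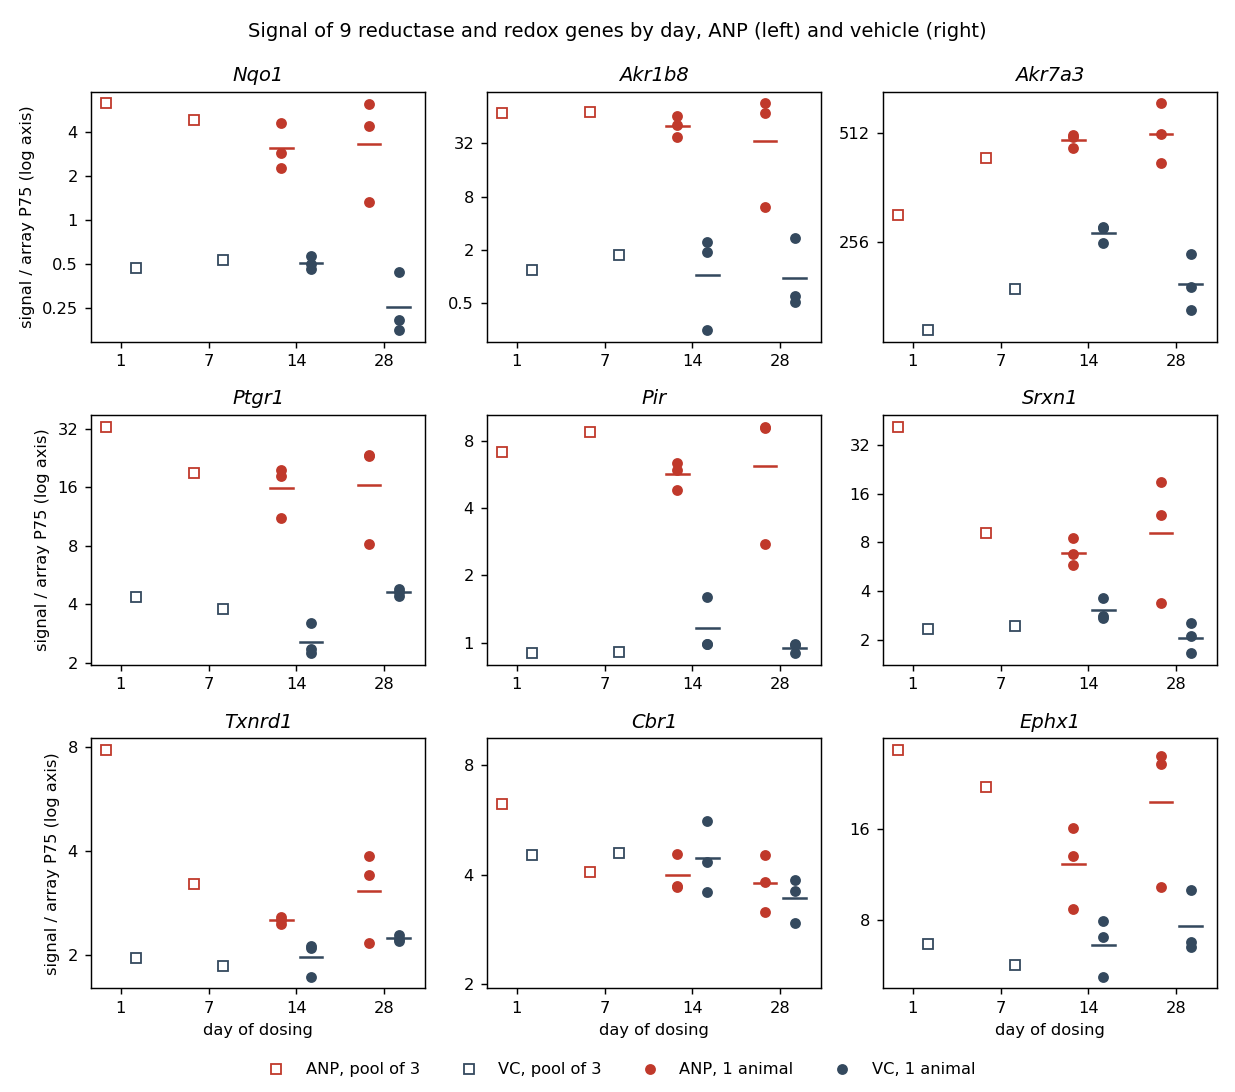
Signal of each gene relative to the array's 75th percentile (log axis, a different range in each panel) by day of dosing, with ANP at the left of VC; open squares are pools of 3 animals, filled points are single animals and bars are the mean of the log values of 3 animals. The ANP points lie above all VC points of the same day for 8 genes at day 14 and for 7 at day 28, and Cbr1 overlaps at both days.

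Nqo1, the quinone reductase, had its highest ANP signal in the day 1 pool. Its signal was 6.24 in the ANP pool and 0.471 in the VC pool at day 1, and 4.8 in the ANP pool and 0.535 in the VC pool at day 7. At day 14 it was 2.25, 4.59 and 2.86 in the 3 ANP animals, against 0.496, 0.561 and 0.460 in the 3 VC animals. At day 28 it was 1.32, 4.35 and 6.12 in ANP animals, against 0.208, 0.176 and 0.442 in VC animals. The groups did not overlap at either day. The fold change at day 14 was 6.14 (95% interval 2.72 to 13.9, n = 3 each), with an adjusted p of 0.0667 that missed the threshold. At day 28 Nqo1 rose 13-fold (5.74 to 29.3, limma adjusted p = 0.0070), and over both days it rose 8.92-fold (5.02 to 15.9, adjusted p = 0.0016). Its other probe gave log2 differences of 2.58 at day 14 and 3.56 at day 28, beside 2.62 and 3.70 for the probe used.

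Akr1b8, a rodent aldo-keto reductase of the aldose reductase subfamily, had the largest differences of the 9 genes at all 4 times. Its signal was 70.6 in the ANP pool and 1.18 in the VC pool at day 1, and 72.8 in the ANP pool and 1.77 in the VC pool at day 7. Single ANP animals of day 14 had 38.2, 65.3 and 51.1, and the VC animals 2.44, 1.92 and 0.249. By day 28 ANP animals had 6.14, 90.7 and 69.7, and the VC animals 0.522, 0.609 and 2.76. The groups were apart at both days, but VC values spread widely at both days and so did ANP values at day 28. The fold change at day 14 was 47.8 (8.48 to 270, adjusted p = 0.0667) and did not pass; at day 28 Akr1b8 rose 35.4-fold (6.27 to 199, limma adjusted p = 0.0267, n = 3 each). Over both days it rose 41.1-fold (12.1 to 140, adjusted p = 0.0039). Without VC replicate 3 of day 14, which had the lowest signal, the day 14 log2 difference was 4.54 in place of 5.58. Akr1b8 belongs to a family of like sequences, and whether its probe also takes up the product of a relative such as Akr1b10 was not tested.

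Akr7a3, the rat aflatoxin aldehyde reductase, moved by less but with a narrower spread. In ANP and VC pools its signal was 304 and 145 at day 1, and 437 and 190 at day 7. At day 14 the ANP animals had 499, 466 and 506, and the VC animals 281, 279 and 254. At day 28 the ANP animals had 422, 619 and 508, and the VC animals 165, 192 and 237. The groups did not overlap at either day. Akr7a3 rose 1.81-fold at day 14 (1.43 to 2.28, limma adjusted p = 0.0472) and 2.61-fold at day 28 (2.06 to 3.29, adjusted p = 0.0031), with the smallest adjusted p of the 9 genes at day 28.

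Cbr1, a cytosolic carbonyl reductase of the short-chain family, did not pass at any time. Its signal was 6.27 in the ANP pool and 4.53 in the VC pool at day 1, and 4.07 in the ANP pool and 4.58 in the VC pool at day 7. Single ANP animals of day 14 had 3.73, 4.56 and 3.70, and the VC animals 4.33, 3.58 and 5.62. By day 28 ANP animals had 3.82, 3.16 and 4.52, and the VC animals 3.87, 2.95 and 3.62. The groups overlapped at both days. The log2 difference was -0.16 at day 14 (95% interval -0.57 to 0.26, limma adjusted p = 0.796) and 0.13 at day 28 (-0.28 to 0.55, adjusted p = 0.691). Its 3 probes had different signs at day 28, from -0.11 to 0.13, so no direction is given for Cbr1.

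Ptgr1, an alkenal reductase that also acts on prostaglandins and leukotriene B4, had a signal of 32.9 in the ANP pool and 4.35 in the VC pool at day 1, and of 19.0 in the ANP pool and 3.78 in the VC pool at day 7. At day 14 the ANP animals had 11.1, 19.6 and 18.4, and the VC animals 3.21, 2.24 and 2.37. At day 28 the ANP animals had 8.19, 23.3 and 23.6, and the VC animals 4.40, 4.83 and 4.64. The groups were apart at both days. Ptgr1 rose 6.18-fold at day 14 (3.48 to 11.0, limma adjusted p = 0.0201), with the smallest adjusted p of the 9 genes at that day. It rose 3.58-fold at day 28 (2.02 to 6.34, adjusted p = 0.0211). Its vehicle level was higher at day 28 than at day 14 by 0.85 on the log2 scale, an adjusted p of 0.179 that missed the threshold.

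Pir encodes pirin, a nuclear iron protein with quercetinase activity, and holds the strict motif in the promoter printed above. In ANP and VC pools its signal was 7.15 and 0.901 at day 1, and 8.76 and 0.909 at day 7. Single ANP animals of day 14 had 4.84, 6.35 and 5.90, and the VC animals 1.61, 0.984 and 0.989. By day 28 ANP animals had 2.77, 9.13 and 9.25, and the VC animals 0.986, 0.896 and 0.974. The lowest ANP animal lay above the highest VC animal at both days. Pir rose 4.87-fold at day 14 (2.64 to 9.0, limma adjusted p = 0.0446) and 6.48-fold at day 28 (3.51 to 12.0, adjusted p = 0.0073). Its other probe had log2 differences of 2.54 and 2.88 at these days, beside 2.28 and 2.70 for the probe used.

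Srxn1 encodes sulfiredoxin, which restores over-oxidised peroxiredoxins. Its signal was 41.5 in the ANP pool and 2.34 in the VC pool at day 1, and 9.12 in the ANP pool and 2.43 in the VC pool at day 7. At day 14 the ANP animals had 6.75, 8.53 and 5.77, and the VC animals 3.66, 2.83 and 2.75. At day 28 the ANP animals had 3.37, 11.8 and 19.0, and the VC animals 2.55, 1.65 and 2.12. The groups were apart at both days, by little at day 28. The 2.27-fold difference at day 14 did not pass (1.05 to 4.87, limma adjusted p = 0.338), and at day 28 Srxn1 rose 4.38-fold (2.04 to 9.42, adjusted p = 0.0327). The log2 difference between pools was 4.15 at day 1 and 1.91 at day 7, and a second probe gave 3.22 and 1.0.

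Txnrd1, the cytosolic thioredoxin reductase, was at least 2-fold higher in ANP in the day 1 pools and less than 2-fold in those of day 7. Its signal was 7.84 in the ANP pool and 1.96 in the VC pool at day 1, and 3.21 in the ANP pool and 1.86 in the VC pool at day 7. Single ANP animals of day 14 had 2.53, 2.59 and 2.47, and the VC animals 2.13, 2.09 and 1.74. By day 28 ANP animals had 2.17, 3.41 and 3.88, and the VC animals 2.2, 2.3 and 2.23. The groups did not overlap at day 14 and overlapped at day 28, where 1 ANP animal lay below all VC animals. Neither the 1.28-fold difference at day 14 (0.969 to 1.68, limma adjusted p = 0.435) nor the 1.37-fold difference at day 28 (1.04 to 1.80, adjusted p = 0.145) passed, nor did the mean of both (adjusted p = 0.0721). The 4 probes of Txnrd1 gave log2 differences of 1.53 to 2.00 at day 1 and of 0.18 to 0.45 at day 28.

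Ephx1, the microsomal epoxide hydrolase, had a signal of 29.2 in the ANP pool and 6.67 in the VC pool at day 1, and of 22.0 in the ANP pool and 5.71 in the VC pool at day 7. At day 14 the ANP animals had 13.1, 16.1 and 8.76, and the VC animals 8.0, 7.03 and 5.22. At day 28 the ANP animals had 10.3, 27.9 and 26.2, and the VC animals 6.53, 10.1 and 6.78. The groups were apart at both days, with 1 ANP animal close to the VC range at each. The differences of 1.85-fold at day 14 (1.04 to 3.29, limma adjusted p = 0.342) and 2.57-fold at day 28 (1.44 to 4.57, adjusted p = 0.0549) did not pass. Over both days Ephx1 rose 2.18-fold (1.45 to 3.27, adjusted p = 0.0268), and 14 of 22 alternative settings kept that call.

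**Figure D2:**
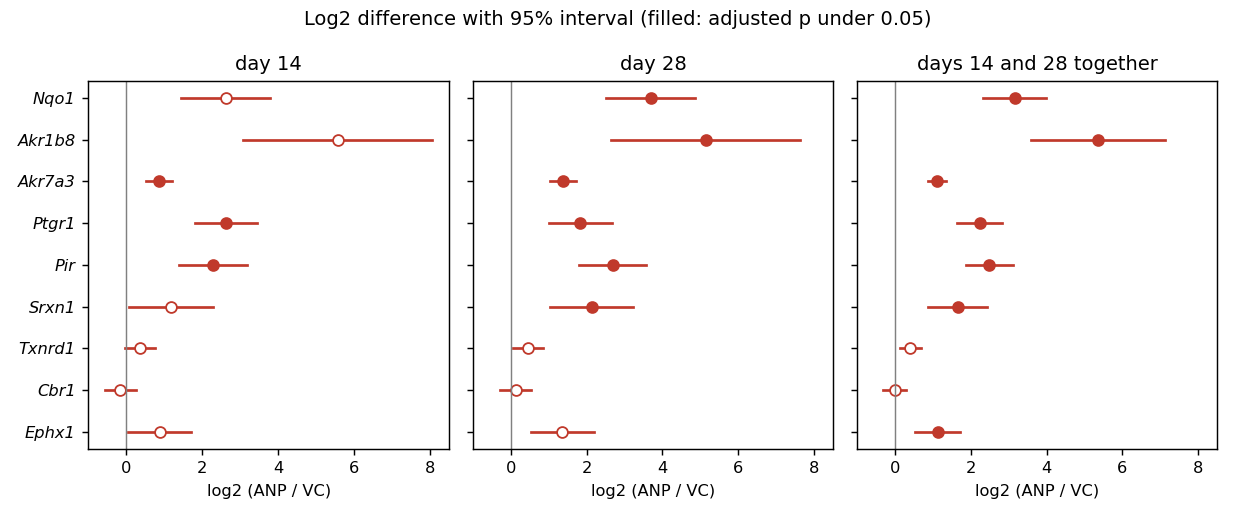
Log2 ratio of ANP over VC for the 9 genes at day 14, day 28 and both days together, with 95% intervals from the fit over 12 arrays (3 animals a group); filled points have an adjusted p under 0.05. Akr1b8 has the widest interval, from 3.08 to 8.08 at day 14, and the Cbr1 interval spans 0 in each panel.

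At day 14 all 3 ANP animals lay above all 3 VC animals for 8 of the 9 genes, beside 10.2% of 11844 genes, and at day 28 for 7 of 9, beside 18.6% of 11845 genes. None of the 9 had all ANP animals below all VC animals at day 14 or day 28, beside 7.92% and 14.2% of genes. The day 14 calls depended on which animals were in the fit. Without ANP replicate 2 or 3 or VC replicate 2 of day 14, none of the 9 genes passed at that day; without ANP replicate 1 or VC replicate 3 of day 14 only Ptgr1 passed, and without VC replicate 2 of day 28, whose arrays share the estimate of spread, again only Ptgr1. Without ANP replicate 1 of day 28, 5 passed at day 14, with Nqo1 and Akr1b8 added; Akr7a3 was lost without ANP replicate 3 of day 28 or VC replicate 1 of day 14, and Pir without VC replicate 1 or 3 of day 28. Within the slide that holds both groups, ANP replicate 1 differed from the 3 VC arrays by a log2 value of 2.11 for Ptgr1, 2.06 for Pir, 0.88 for Akr7a3, 2.16 for Nqo1 and 5.18 for Akr1b8, and none of the 9 genes passed in that fit (adjusted p from 0.386 to 0.997). No gene of all those tested did, and with 1 ANP array the spread comes from the other groups, so this fit says little on stability.

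Whether the differences changed between day 14 and day 28 was tested directly. None of the 9 genes passed, and none of the 11849 genes did (limma, 1098 genes at an unadjusted p under 0.05). The smallest adjusted p was that of Akr7a3, whose difference was larger at day 28 by 0.53 on the log2 scale (95% interval 0.05 to 1.0, adjusted p = 0.504). For Nqo1 the day 28 difference exceeded the day 14 difference by 1.08 (-0.58 to 2.74), and for Ptgr1 it was smaller, at -0.79 (-1.96 to 0.38). The widest interval was that of Akr1b8, from -3.96 to 3.09, which leaves room for a change of over 2-fold in either direction. Between the VC groups of day 28 and day 14, 6.99% of genes were higher and 4.16% lower and none of the 9 genes passed. These VC arrays lay on different slides. The VC log2 difference, day 28 minus day 14, was -0.99 for Nqo1 (limma adjusted p = 0.265) and -0.47 for Akr7a3 (0.0765). It was above 0 for 3 of the 9 genes, Ptgr1 among them. Mean log2 signals of ANP animals at days 14 and 28 were 1.63 and 1.71 for Nqo1, and 8.94 and 8.99 for Akr7a3.

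**Figure D3:**
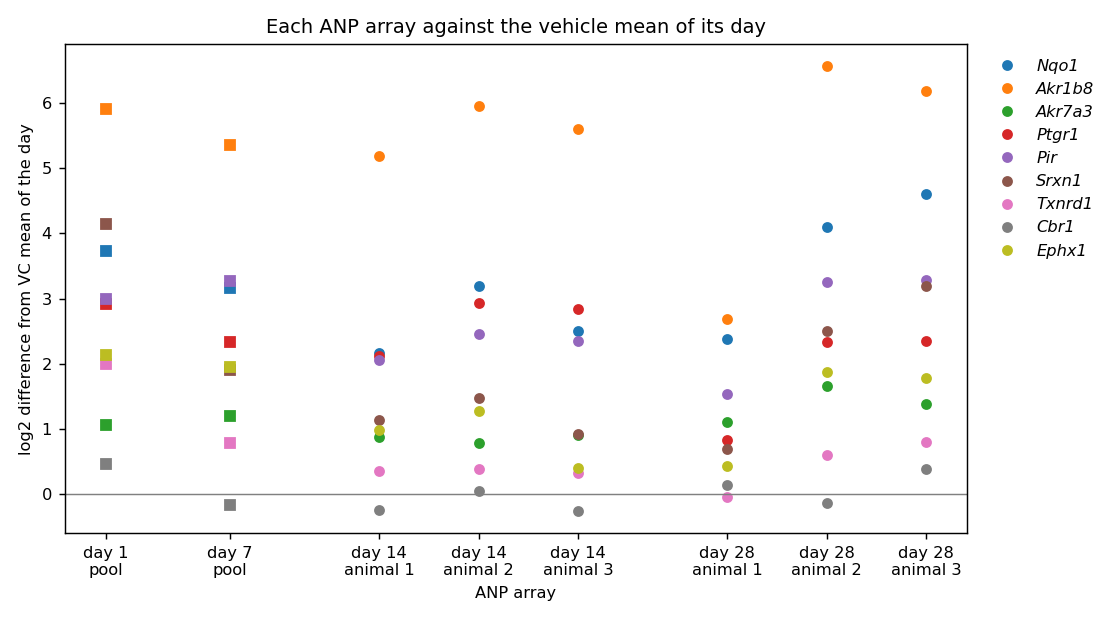
Log2 difference of each ANP array from the VC mean of its day, for the 9 genes; squares are pools and circles are single animals. Animal 1 of day 28 has a median over the 9 genes of 0.83, and animals 2 and 3 have 2.34 and 2.35.

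The ANP animals of 1 day differed among themselves across several of the genes at once. At day 28 replicate 1 had the lowest signal of its group for 8 of the 9 genes, all but Cbr1. Its median log2 difference from the VC mean was 0.83, against 2.34 and 2.35 for replicates 2 and 3. The gap was largest for Akr1b8, for which replicates 2 and 3 averaged 13 times the signal of replicate 1, followed by Srxn1 at 4.44 times and Nqo1 at 3.91 times, and smallest among the risen genes for Akr7a3 at 1.33 times. At day 14 the median differences were 1.14, 1.48 and 0.92, and replicate 2 was highest for 8 genes, all but Akr7a3. VC animals differed too. At day 14 VC replicate 1 was highest of its group for 7 of the 9 genes and VC replicate 3 lowest for 6. At day 28 each VC replicate was highest for 3 genes, and VC replicate 1 was lowest for 5. How often all genes followed the same order of animals was not counted. These orders are therefore not shown to be particular to the 9 genes.

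Without replicate 1 of the ANP group of day 28, 8 of the 9 genes passed at that day, with Txnrd1 (log2 difference 0.70, limma adjusted p = 0.0099) and Ephx1 (1.82, adjusted p = 0.0124) added, and the Akr1b8 difference was 6.38, that of Nqo1 4.35 and that of Srxn1 2.85 (7.21-fold). Of 23 alternative settings at day 28, 16 kept the call of Srxn1 and 18 those of Akr1b8 and Ptgr1. Those that left out a day 14 animal changed the spread but not the day 28 differences. Without ANP replicate 2 or 3 of day 28, 3 and 4 genes passed, and without VC replicates 1, 2 or 3 of that day, 3, 3 and 4. Srxn1 passed in none of these fits, Ptgr1 only without ANP replicate 3 and Akr1b8 only without VC replicate 3. Nqo1, Akr7a3 and Pir passed at day 28 whichever 1 of the 12 animals was left out.

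The summed signal of the 14 S3 markers was 633 in the ANP animal with the low values and 490 and 421 in the other ANP animals at day 28, against 477 to 551 in VC animals. The summed signal of 14 tubular injury markers was 413 in that animal and 272 and 267 in the other ANP animals, against 316 to 393 in VC animals, and its median difference over these markers was 0.00, against -0.06 and -0.04 in the other ANP animals. The part of these values in the low signals was not tested.

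Markers of other segments also differed between ANP and VC animals. Their counts at day 28 stand beside 4.49% of all genes that rose and 2.69% that fell. Those over both days stand beside 6.14% and 4.08%. Of 16 markers of the convoluted proximal tubule, which lies in the cortex, 1 rose and 2 fell at day 28, with a median log2 difference of -0.69, and their summed signal was 1148 to 1322 in ANP animals and 1469 to 1642 in VC animals. Of 13 glomerular markers 6 fell at day 28, with a median of -0.79 and summed signals of 25.1 to 28.7 in ANP animals and 42.4 to 51.2 in VC animals. Of 13 collecting duct markers 3 fell at day 28, with a median of -0.38 and summed signals of 133 to 227 in ANP animals and 223 to 262 in VC animals. At day 14 no marker of these 3 lists passed and the medians were -0.73, -0.41 and -0.32. Summed signals in VC animals were then 665 to 1162, 21.7 to 25.6 and 161 to 217. Those of VC animals of day 28, on another slide, were higher. In ANP animals of day 14 they were 576 to 811, 17.9 to 20.1 and 124 to 155. The part of that VC difference in the day 28 results was not tested. Of 14 S3 and 14 thick ascending limb markers, 1 each rose and 0 and 1 fell at day 28, with medians of -0.06 and 0.23. Over both days 8 convoluted tubule, 9 glomerular and 4 collecting duct markers fell. No marker of the convoluted tubule was below background throughout a group. The part of the tissue's makeup in the results for the 9 genes was not tested. Tubular injury markers had medians of 1.69 at day 1 and 0.31 at day 7, then 0.46 at day 14 and -0.09 at day 28. Havcr1, which encodes kidney injury molecule 1, had log2 differences of 9.63, 4.23, 2.10 and -0.03 at days 1, 7, 14 and 28, and passed at neither of the last days (adjusted p = 0.135 and 0.980). At day 14, 1 of 14 injury markers rose and none fell, beside 0.363% and 0.118% of all genes. At day 28 also 1 rose and none fell, beside 4.49% and 2.69%. Over both days 2 rose and none fell, beside 6.14% and 4.08%.

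Related enzyme families are given from 6 lists of 91 tested genes. None of the 91 passed at day 14, and at day 28 8 rose and 3 fell, beside 4.49% and 2.69% of all genes, with a list median of 0.05 on the log2 scale. The 8 include Adh7, which entered the test through its ANP arrays alone. Of 18 other aldo-keto, carbonyl and short-chain reductases none passed at either day (medians -0.01 and 0.05). Among them Akr1b10 had log2 differences of 1.5 at day 1, 1.93 at day 7, -1.71 at day 14 and 0.15 at day 28, and Akr1c15 of 2.47, 0.64, -1.99 and -0.99. The other reductases of the families of Akr7a3 and Cbr1 were near 0 at day 28, with Akr7a2 at 0.28 and Cbr3 at -0.23. Of 16 other quinone, cytochrome and nitro reductases 1 passed at day 28, Cyb5r1, a cytochrome b5 reductase relative that fell by 0.44 (limma adjusted p = 0.0150); the mean of its probes went the other way, at 0.14. Nqo2, the relative of Nqo1, was at -0.33 at day 14 and -0.24 at day 28 and did not pass.

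Aldehyde and alcohol dehydrogenases gave 4 risen genes of 20 at day 28 and none that fell. The shares of all genes were 4.49% and 2.69%, and 1 of the 4 (Adh7) entered the test through its ANP arrays alone. Aldh3b1, which oxidises lipid aldehydes at membranes, had log2 signals of 1.36, 2.13 and 2.08 in ANP animals and -0.65, -0.28 and 0.16 in VC animals at day 28. It rose 4.33-fold there (log2 difference 2.11, SE 0.27, limma adjusted p = 0.0047), and 2.46-fold at day 14 without passing (adjusted p = 0.0707). Adh7, which oxidises retinol, was well above background on all 8 ANP arrays and on no VC array. Its signal was at least 3.55-fold higher in ANP at day 1, 3.68-fold at day 7, 2.98-fold at day 14 and 3.19-fold at day 28, with limma adjusted p-values of 0.0691 at day 14 and 0.0245 at day 28 that rest on VC signals not well above background. These bounds set the ANP mean against the lowest signal well above background on each VC array, or the probe's own where higher. Aldh1l1, of folate metabolism, rose with a log2 difference of 0.94 and Aldh18a1, of proline synthesis, with 0.78 at day 28. Aldh3a1 was at 0.08 and -0.05 at days 14 and 28.

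**Figure D4:**
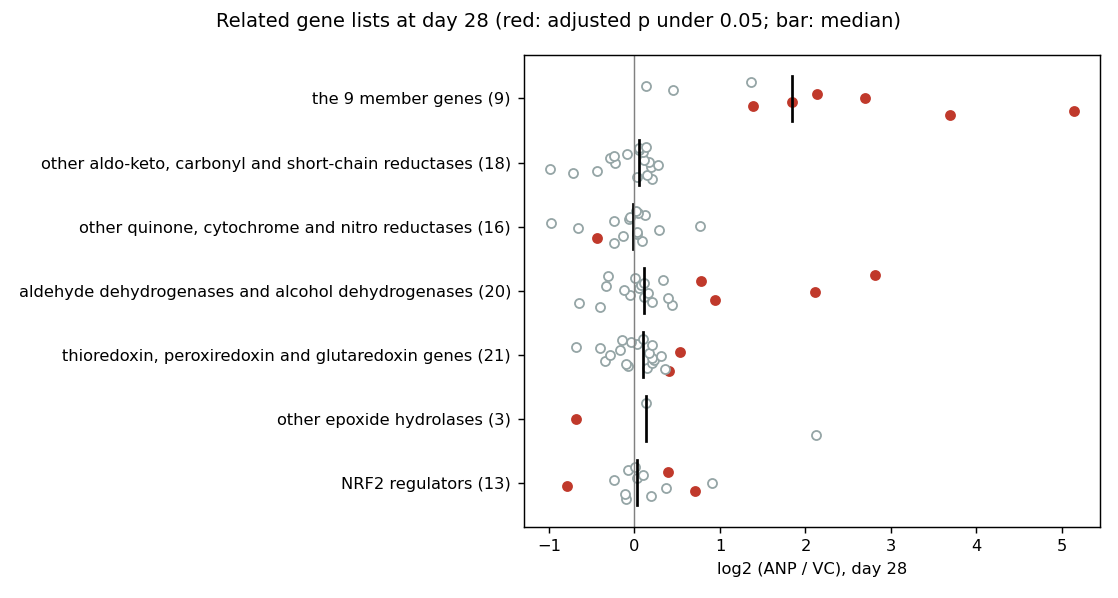
Log2 ratio of ANP over VC at day 28 for the 9 genes and for 6 lists of related genes (number tested in brackets); red points have an adjusted p under 0.05, open points do not, and the black bar is the median. The 9 genes have a median of 1.84 and the medians of the 6 lists lie between -0.01 and 0.14.

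Of 21 thioredoxin, peroxiredoxin and glutaredoxin genes 2 rose at day 28 and none fell, beside 4.49% and 2.69% of all genes. Txn1, the thioredoxin that Txnrd1 reduces, rose with a log2 difference of 0.40 (SE 0.09, limma adjusted p = 0.0255), and Prdx6, a peroxiredoxin, with 0.53 (SE 0.14, adjusted p = 0.0484). Prdx1, a substrate of sulfiredoxin, was at 0.28 at day 14 and 0.23 at day 28 and did not pass. Of 3 other epoxide hydrolases Ephx4 fell by 0.68 at day 28 (limma adjusted p = 0.0082). Ephx2, the soluble epoxide hydrolase, was at 2.12 there without passing (adjusted p = 0.120), with log2 signals of 1.15, -2.16 and 1.47 in the VC animals.

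Regulators of NRF2 made up a list of 13 tested genes, of which 2 rose and 1 fell at day 28. Of all genes 4.49% rose and 2.69% fell there. Nfe2l2, which encodes NRF2, was at -0.18 at day 14 and -0.10 at day 28, and Keap1 at 0.03 and -0.11, and neither passed. Sqstm1 (p62), which binds KEAP1, had log2 differences of 1.54 and 0.96 in the pools of days 1 and 7 and rose by 0.71 at day 28 (limma adjusted p = 0.0232). Maff, a small MAF gene, was at 2.62 in the day 1 pools and 0.91 at day 28, where it missed the threshold (adjusted p = 0.0522). Bach2, a repressor of the BACH family, fell by 0.79 at day 28, and Rbx1, of the ligase that acts with KEAP1, rose by 0.39.

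The genes whose pattern lay nearest to members of the 9 were found by the root mean square of the differences in log2 over the 8 ANP arrays, each set against the VC mean of its day. Genes not well above background on all VC arrays have no exact distance and are left out of this account. Pir lay near Ugt2b37 (0.58) and Ugt2b15 (0.59), both UDP-glucuronosyltransferase genes, beside a size of 2.72 for Pir itself. Nqo1 lay near Pir (0.73, of a size of 3.33). Txnrd1 lay nearest to Tubb6 (0.23) and Sqstm1 (0.25). Akr7a3 lay nearest to Padi1 (0.16) and the phosphate transporter gene Slc17a1 (0.18). These distances describe the same 8 arrays and carry no test.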

How the data were processed

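The authors hybridised Cy3-labelled RNA to 1-colour Agilent rat arrays and read the spots with Feature Extraction 10.7 (Agilent), as named in the submitters' processing notes. Each deposited scanner file holds background-subtracted processed intensity, median spot and background intensity and flags, per the file headers. The authors' deposited value table holds a ratio, which follows processed intensity over its array's 75th percentile (r on the log2 scale at least 0.9999, column medians 0.099 to 0.108); its scale is linear and not centred.

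Log2 of the processed intensity minus the array's 75th percentile (809 to 1324) was used without control spots and with 0 to 9 outlier spots per array left out. No spot was saturated. Of 61657 probes 27460 were named through RefSeq accessions (GRCr8 table). The probe with the highest mean stood for a gene, and the gene was tested where 1 or more of the 4 groups of days 14 and 28 had every array well above background. limma 3.58.1 in R 4.3.3 fitted a mean for each group; adjustment followed Benjamini-Hochberg, with a threshold of 0.05. Pools were called at 2-fold. The method was tested on simulated data that held no slide effect.

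Alternatives covered scaling, background correction (normexp with offset 50, on the median spot intensity, followed by quantile normalization), the authors' table, filters, probe summary, arrays in the fit, blocks and left-out animals. The 9 genes and the lists were chosen with earlier results of these data known. The text names the 9 genes and all their probes, up to 4 passing genes per list and day of largest difference, list members as examples, and up to 3 nearest genes per gene. A nearest gene that the rule would name is not reported here.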

Additional observations from a re-analysis of the deposited data

Results flagged for a closer look

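Cbr1 had opposite signs in the pools of days 1 and 7: its log2 difference of ANP from VC was 0.47 at day 1 and -0.17 at day 7. It was flagged because the only array pair of each day moved the other way, and the difference between the days was not tested, since each group had 1 pooled array. All 3 probes of Cbr1 had these signs, from 0.23 to 0.57 at day 1 and from -0.20 to -0.06 at day 7.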

How the results depend on the processing

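Over both days together, Nqo1, Akr1b8, Akr7a3, Ptgr1, Pir and Srxn1 stayed higher and past the threshold under all 22 alternatives run. At day 28 Nqo1, Akr7a3 and Pir did so under all 23. Slide as a fixed block was run for day 14 only, so it is among neither these 22 nor these 23. Among them the authors' table and the fit of each named probe on its own came close to the reported fit. Counts of genes depended more on the settings, and the cause was not tested. Higher and lower calls over all genes at day 14 (43 and 14) were 69 and 50 with normexp and quantile normalization together (here the normexp setting), 21 and 7 without a filter on dim probes, 12 and 8 with only the 6 arrays of the day, 0 and 0 with slide as a fixed block and 88 and 45 with slide as a random block, whose estimated correlation was negative (-0.089); the lower calls were 23 with quantile normalization and 8 with the mean of probes. Of the 9 genes the 3 calls of day 14 were 5 with the normexp setting, 1 without a filter, 0 with the fixed and 5 with the random slide block. Higher and lower calls at day 28 (532 and 319) were 1098 and 761 with the random slide block, 216 higher with 6 arrays and 571 lower with the normexp setting; the 6 calls among the 9 genes were 3 with 6 arrays. Scaling to the array median gave 76.0% of the day 28 calls as higher in place of 62.5%, and 72.9% in place of 60.1% over both days, and the normexp setting gave 58.0% in place of 75.4% at day 14, where quantile normalization alone gave 67.6%. Between VC groups (828 and 493) the random block gave 1258 and 945 and the normexp setting 820 lower, and 1 of the 9 genes was lower under quantile normalization and under the random block. List genes higher at day 14 (0) were 1 with the normexp setting and 2 with the random block; at day 28 (8 and 3) they were 3 higher and 1 lower with 6 arrays, and 6 lower with the normexp setting and with the random block and 0 with the mean of probes. Over both days the 5 lower list genes were 8 with quantile normalization and with the normexp setting, and 3 with median scaling and without a filter.

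The labels do not say that replicate numbers pair the animals, and no pairing was assumed. Each gene's deviation from its group mean was correlated across genes between every ANP array and every VC array of the same day. For same-numbered arrays the correlation of these deviations was 0.129, 0.069 and 0.144 at day 14 and -0.068, -0.045 and 0.112 at day 28. Arrays with different numbers ran from -0.179 to 0.049 at day 14, below the same-numbered ones. At day 28 they ran from -0.120 to 0.156. With the replicate block, calls over all genes were 3 higher and 4 lower at day 14, 287 and 211 at day 28 and 460 higher over both days, the 9 genes gave 0 calls at day 14 and 6 at day 28, where Srxn1 was lost (adjusted p = 0.0682) and Ephx1 gained (0.0413), and list genes 4 higher at day 28 and 3 lower over both days.

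Leaving out 1 animal at a time, calls over all genes ranged from 0 to 69 higher and 1 to 26 lower at day 14, 146 to 554 and 62 to 421 at day 28, 389 to 715 and 200 to 506 over both days, 302 to 985 and 126 to 613 between VC groups, and 0 to 2 and 0 to 1 for the difference between days. Among the 9 genes the higher calls ranged from 0 to 5 at day 14, 3 to 8 at day 28 and 6 to 8 over both days, and between VC groups from 0 to 1 in either direction. List genes ranged from 0 to 2 higher and 0 to 1 lower at day 14, 1 to 10 and 1 to 3 at day 28, and 5 to 9 and 2 to 7 over both days.

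Signs turned for Cbr1 at day 28 with the mean of its probes (-0.0143), over both days with median scaling (0.0280), and with 1 animal left out, where it ranged from -0.310 to 0.0144 at day 14 and from -0.0882 to 0.0740 over both days. Cyb5r1 turned with the mean of its probes, to 0.14 at day 28 and 0.16 over both days. With 1 animal left out, the difference between days ranged from -1.15 to 0.80 for Akr1b8 and from -0.0745 to 0.346 for Txnrd1, and the VC difference of Akr1b8 from -1.18 to 0.47. Of these only Cyb5r1 had passed in the reported fit.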
